A study of Mus musculus with 10 samples.

Results

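Tnfrsf23, Tnfrsf22, Tnfrsf26, Tnfrsf10b and Tnfsf10 encode the mouse receptors, decoy receptors and ligand of the TRAIL system. These 5 genes, of 22180 measured, were picked by family, and the set was selected on the values of Tnfrsf23, which lay among the largest differences between Zbtb4 knock-out and wild-type cells on these same arrays. The differences between genotypes below are therefore given as descriptions of the members, without a test. All 5 were measured, each by 1 probe set annotated to that gene and no other.

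The cells were mouse embryonic fibroblasts (MEFs) in primary culture, isolated from the dorsal skin of embryos at embryonic day 13.5. RNA of 5 samples of Zbtb4 knock-out MEFs and 5 samples of wild-type MEFs was measured on one-colour Affymetrix arrays, with the aim of finding transcripts that depend on Zbtb4, a zinc finger transcription factor with affinity for methylated CpG. The labels name neither the strain, the passage, the way the knock-out allele was made nor any treatment, and do not say whether arrays of a genotype came from separate embryos, so errors measure only the spread between these samples. All values are the deposited log2 expression values, and a difference is the mean of the knock-out arrays minus the mean of the wild-type arrays.

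TRAIL, the protein made from Tnfsf10, is a ligand of the tumour necrosis factor (TNF) family that triggers cell death through receptors with a cytoplasmic death domain. In the mouse the receptor with a death domain is encoded by Tnfrsf10b, also called DR5 or Killer, and it recruits the adaptor Fadd and caspase-8. Tnfrsf23 and Tnfrsf22 encode decoy receptors that bind TRAIL but lack a death domain, the first anchored to the membrane by a lipid tail. Tnfrsf26 is a related gene whose protein also lacks a death domain. In the RefSeq gene table, Tnfrsf26, Tnfrsf22 and Tnfrsf23 follow one another on chromosome 7, beside the imprinted genes around Kcnq1, while Tnfrsf10b lies on chromosome 14 and Tnfsf10 on chromosome 3.

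Zbtb4 binds methylated CpG, so the promoters of the decoy receptor Tnfrsf23 and of the ligand are shown with every CpG in capitals and other bases in lower case. The RefSeq promoter table (GRCm38.p6) held 2 of the 5 members, Tnfrsf23 and Tnfsf10. Each sequence is the 250 bases before the annotated start, read 5′ to 3′ on the gene's strand, at chr7:143685876-143686125 on the minus strand for Tnfrsf23 and chr3:27316827-27317076 on the plus strand for Tnfsf10.
Tnfrsf23: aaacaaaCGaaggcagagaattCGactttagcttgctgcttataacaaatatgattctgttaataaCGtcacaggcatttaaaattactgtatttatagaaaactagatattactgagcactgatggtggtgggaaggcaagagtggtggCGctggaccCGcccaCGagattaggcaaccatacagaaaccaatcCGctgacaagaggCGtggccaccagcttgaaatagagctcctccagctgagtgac
Tnfsf10: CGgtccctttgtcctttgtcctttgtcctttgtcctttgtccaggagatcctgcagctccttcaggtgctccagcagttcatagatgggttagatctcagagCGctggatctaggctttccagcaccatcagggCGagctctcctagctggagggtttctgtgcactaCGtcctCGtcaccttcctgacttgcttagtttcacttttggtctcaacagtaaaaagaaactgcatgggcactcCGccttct

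The Tnfrsf23 promoter held 8 CpG in 250 bases, an observed over expected ratio of 0.641, and 57.0% of the 32851 promoters in the table held fewer. The Tnfsf10 promoter held 6 CpG, a ratio of 0.365, where the median of all promoters was 6 and the quartiles were 2 and 16. Neither promoter is rich in CpG compared with the upper quartile of the table. Both 8-base sites of the kind reported for human ZBTB4 (CTGCCATC and CCGCCATC) were searched on both strands. They occur in 1.09% and 0.874% of all promoters, and no match was found in either window. Methylation and binding were not measured, and the missing match says only that these letters are not in these windows.

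The knock-out was checked through Zbtb4, whose single probe set read 5.04 to 5.76 on the 5 knock-out arrays and 5.94 to 6.23 on the 5 wild-type arrays, a difference of -0.62. The extent of the deletion is not stated, so this is no measure of intact transcript. Fibroblast markers were high on all arrays, with the collagen gene Col1a2 from 11.50 to 11.72 and vimentin (Vim) from 12.01 to 12.20. Array medians ran from 3.89 to 3.93 and lower quartiles from 2.68 to 2.72, and nothing given with the values tells which level is background. Y-linked genes read high on arrays 1 and 3 of the knock-out and on arrays 1 and 3 of the wild type, with mean deviations of 2.38 and 1.84 in the knock-out and 2.22 and 2.14 in the wild type, and low on the other arrays of both genotypes, so embryos of both sexes are in each group.

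Among the members, Tnfrsf23 alone separated the genotypes. The decoy receptor gene read 7.39, 7.63, 7.32, 7.59 and 7.52 on knock-out arrays 1 to 5. It read 6.92, 7.16, 7.08, 7.07 and 6.97 on wild-type arrays 1 to 5. Every knock-out array lay above every wild-type array, with the lowest knock-out value on array 3 and the highest wild-type value on array 2. The means were 7.49 ± 0.13 in the knock-out and 7.04 ± 0.094 in the wild type (SD, n = 5 each). The log2 difference of 0.45 had a standard error of 0.083 and a 95% interval of 0.27 to 0.63, which is 1.37-fold on the linear scale, with an interval from 1.21 to 1.55. It ranked 43 of 22180 genes from the highest difference, which is what brought the gene into the set. In these bulk cultures, more RNA per cell and more cells that make it cannot be told apart.

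Of the 5 members, 1 had groups of arrays that did not overlap, beside 0.987% of all genes. That share is printed as background only, since Tnfrsf23 was chosen by this contrast. Over all 22180 genes, limma with Benjamini-Hochberg adjustment called none at an adjusted p under 0.05, or 0%, and 0 of the 5 members. Without adjustment, 1326 genes (5.98%) had a p under 0.05.

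**Figure D1:**
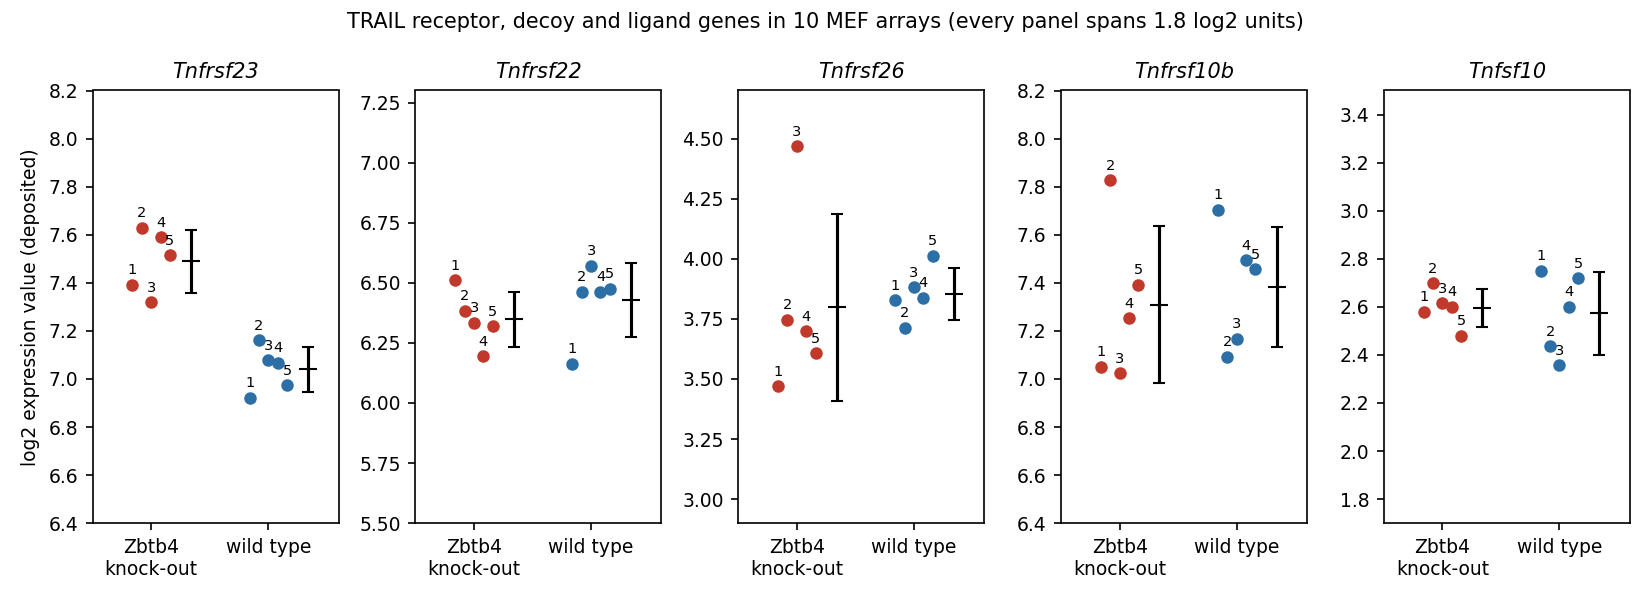
Deposited log2 expression value (vertical axis) of the 5 genes on each array, with points numbered by replicate in knock-out cells (red) and wild-type cells (blue), and black bars giving the mean and SD of each group of 5. Tnfrsf23 lies from 7.32 to 7.63 in the knock-out and from 6.92 to 7.16 in the wild type without overlap, while the groups overlap for the other 4 genes; each panel has its own range of equal height.

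Tnfrsf22, the decoy receptor gene next to Tnfrsf23, showed no such separation. It read 6.51, 6.38, 6.33, 6.19 and 6.32 on knock-out arrays 1 to 5. It read 6.16, 6.46, 6.57, 6.46 and 6.47 on wild-type arrays 1 to 5. The groups overlapped at both ends: wild-type array 1 was the lowest of all arrays, and knock-out array 1 lay above 4 of the 5 wild-type arrays. The means were 6.35 ± 0.11 in the knock-out and 6.43 ± 0.15 in the wild type (SD, n = 5 each), differing by -0.078 with a 95% interval from -0.27 to 0.12. Without wild-type array 1 the difference was -0.14.

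Tnfrsf23 was also set against the other receptor genes on the same array, which is a description only, since it contains the values Tnfrsf23 was chosen on. Tnfrsf23 minus Tnfrsf22 ran from 0.88 to 1.40 on the knock-out arrays and from 0.50 to 0.76 on the wild-type arrays, with means of 1.14 ± 0.21 in the knock-out and 0.61 ± 0.12 in the wild type (SD, n = 5 each). These within-array differences were 0.53 larger in knock-out cells and the groups did not overlap. The other 2 pairs overlapped. Tnfrsf23 minus Tnfrsf26 ran from 2.85 to 3.92 on the knock-out arrays and from 2.96 to 3.45 on the wild-type arrays, with means 0.51 apart. Tnfrsf23 minus Tnfrsf10b ran from -0.20 to 0.34 on the knock-out arrays and from -0.78 to 0.069 on the wild-type arrays, with means 0.52 apart. The absolute size of such a difference reflects the probes as well as the transcripts, so only its change between genotypes can be read. The 3 receptor genes of the cluster are related in sequence, and whether their probes cross-hybridise was not tested.

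Tnfrsf26, the remaining gene of the cluster, was dim, and 1 array stood apart. It read 3.47, 3.75, 4.47, 3.70 and 3.61 on knock-out arrays 1 to 5. It read 3.83, 3.71, 3.88, 3.84 and 4.01 on wild-type arrays 1 to 5. Knock-out array 3 was the highest of all 10, while the other 4 knock-out arrays lay at or below 3.75. On 8 of the 10 arrays the value was below the median of all probe sets. The means were 3.80 ± 0.39 in the knock-out and 3.85 ± 0.11 in the wild type (SD, n = 5 each), differing by -0.057 with a 95% interval from -0.39 to 0.28. Without knock-out array 3 the difference was -0.22, and without knock-out array 1 it was 0.025.

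Knock-out array 3 also had the highest level of macrophage and leukocyte markers. The 14 markers, such as the receptor gene Csf1r and the lysozyme gene Lyz2, had a mean deviation of 0.85 on that array, against -0.52 to 0.17 on knock-out arrays 1, 2, 4 and 5 and -0.29 to 0.14 on the wild-type arrays. Their summed log2 value ran from 60.6 to 79.7 in the knock-out and from 63.8 to 69.8 in the wild type. The defining leukocyte gene Ptprc was dim throughout, from 2.36 to 3.36, while Lyz2 ran from 5.62 to 8.41. The part of these markers in the Tnfrsf26 values was not tested.

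**Figure D2:**
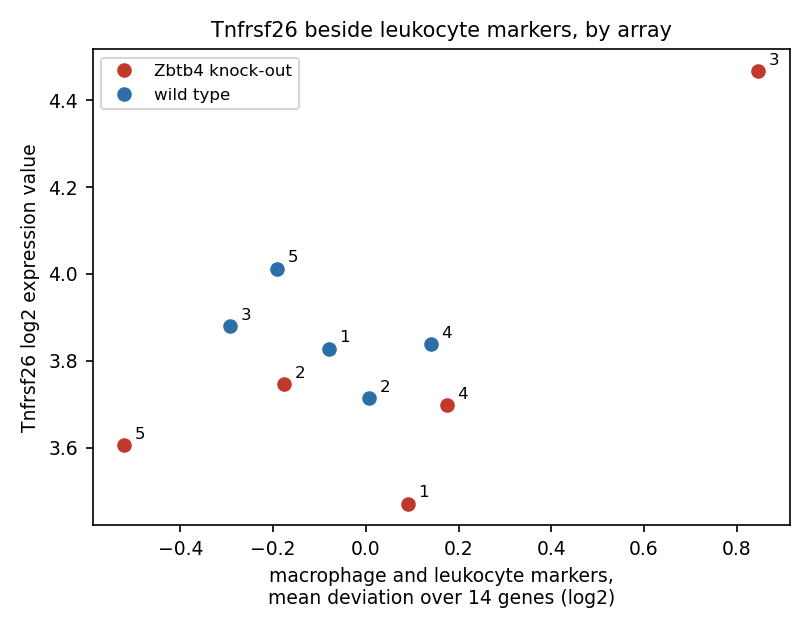
Log2 expression value of Tnfrsf26 (vertical axis) against the mean deviation of 14 macrophage and leukocyte markers from their means over all arrays (horizontal axis, log2), 1 point per array numbered by replicate, knock-out in red and wild type in blue. Knock-out array 3, at 4.47 and 0.85, lies apart from the other 9 arrays.

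The same marker lists were set beside Tnfrsf23. Of the 14 macrophage and leukocyte markers, 13 had a higher mean in the knock-out, with a median difference of 0.19. The 1 with a lower mean was Ptprc, differing by -0.087. Over all genes, 50.7% had a higher mean. The mean deviation of these markers was 0.85 on knock-out array 3 and -0.52 to 0.17 on the other knock-out arrays. In the wild type it was -0.29 to 0.14. How many of these means stay higher without knock-out array 3 was not tested. Knock-out array 3, the richest in these markers, had the lowest Tnfrsf23 value of its group. Of 8 endothelial markers 6 had a higher mean, led by Cdh5 (VE-cadherin), at 3.56 ± 0.22 in the knock-out and 2.95 ± 0.13 in the wild type (SD, n = 5 each). The 2 with a lower mean were Kdr, differing by -0.19, and Cldn5, differing by -0.065. Emcn, the brightest of the 8, differed by 0.023. An unadjusted p under 0.05 was found for 2 of the 8 (25%), beside 5.98% of all genes. They were Cdh5 and the adhesion molecule gene Esam. The groups did not overlap for either, beside 0.987% of all genes. Esam, named after its value was seen, was at 3.13 ± 0.066 in the knock-out and 2.95 ± 0.13 in the wild type (SD, n = 5 each), differing by 0.18. The mean deviation of the endothelial markers ran from -0.054 to 0.15 in the knock-out and from -0.20 to 0.14 in the wild type, and 6 of the 8 lay below the median of every array. Of 4 measured keratinocyte markers 1 had a higher mean, and of 5 lymphocyte and natural killer cell markers 4 did. Fibroblast markers had 3 of 8 means higher. With the level of the Y-linked genes as a covariate, the Tnfrsf23 difference was 0.45, and without knock-out array 3 it was 0.49. The part of the leukocyte and endothelial markers in the Tnfrsf23 values was not tested.

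Tnfrsf10b, the receptor that carries the death domain, varied widely within both genotypes. It read 7.05, 7.83, 7.02, 7.25 and 7.39 on knock-out arrays 1 to 5. It read 7.70, 7.09, 7.17, 7.49 and 7.46 on wild-type arrays 1 to 5. Knock-out array 2 and wild-type array 1 were the highest of their groups, and the groups overlapped over most of their range. The means were 7.31 ± 0.33 in the knock-out and 7.38 ± 0.25 in the wild type (SD, n = 5 each), differing by -0.073 with a 95% interval from -0.41 to 0.26. Without knock-out array 2 the difference was -0.20, and without wild-type array 1 it was 0.0073.

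Tnfsf10, the gene of the ligand TRAIL, read 2.58, 2.70, 2.62, 2.60 and 2.48 on knock-out arrays 1 to 5. It read 2.75, 2.44, 2.36, 2.60 and 2.72 on wild-type arrays 1 to 5. On 9 of the 10 arrays the value lay below the lower quartile of all probe sets, so the ligand was at the dim end of the array in both genotypes. The means were 2.60 ± 0.078 in the knock-out and 2.57 ± 0.17 in the wild type (SD, n = 5 each), differing by 0.023 with a 95% interval from -0.17 to 0.22. Leaving out single arrays gave -0.031 to 0.067. The background level of the array is not known here, so no change in the ligand transcript can be read from so dim a signal.

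Apart from genotype, the members did not vary as a block. With the genotype means removed, Pearson correlations over the 10 arrays ran from -0.49 to 0.64 among the 10 pairs of members. Tnfrsf23 and Tnfrsf22 gave r = 0.11 and Spearman's rho = 0.10. Without the 2 arrays whose Tnfrsf23 deviations from the genotype means lay farthest from their median, r was -0.50. The pair with the highest value was Tnfrsf10b and Tnfsf10, with r = 0.64 and rho = 0.65. It gave r = 0.41 without the 2 arrays whose Tnfrsf10b deviations lay farthest from their median. Knock-out array 2 was the highest of its genotype for both receptor and ligand, and so was wild-type array 1. Tnfsf10 lay below the lower quartile on 9 of the 10 arrays, so its variation cannot be read as change in the ligand transcript. These are descriptions of 10 arrays that share 1 platform, and the pair was singled out of 10 after its value was seen.

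The receptors act through a cascade of adaptors, caspases and their inhibitors, of which 19 of 23 listed genes were measured. None passed in either direction, and 1 of 19 (5.26%) had an unadjusted p under 0.05, beside 5.98% of all genes. There were 8 higher and 11 lower means, with a median difference of -0.029, against 0.0020 over all genes, and the median was 0.0038 after quantile normalization. The adaptor Fadd was at 4.64 ± 0.15 in the knock-out and 4.61 ± 0.15 in the wild type (SD, n = 5 each), differing by 0.030 (limma adjusted p = 0.974). The initiator caspase gene Casp8 differed by 0.066 (adjusted p = 0.925) and Cflar, which encodes the caspase-8 inhibitor FLIP, by 0.098 (adjusted p = 0.892).

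The smallest p-value of the cascade belonged to Xiap, an inhibitor of the effector caspases. It was at 5.89 ± 0.16 in the knock-out and 6.19 ± 0.13 in the wild type (SD, n = 5 each), differing by -0.30 with a standard error of 0.095 (limma adjusted p = 0.821), and the groups overlapped. The adaptor gene Tradd differed by -0.17, the adaptor gene Traf2 by -0.11 and the Bcl2 family survival gene Mcl1 by -0.076, none passing.

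The other TNF receptor genes, 24 in all, showed no called change. There were 15 higher and 9 lower means with a median difference of 0.027. Beside 5.98% of all genes, 1 of 24 (4.17%) had an unadjusted p under 0.05. That gene was Ngfr, the low-affinity neurotrophin receptor, at 3.83 ± 0.078 in the knock-out and 4.19 ± 0.20 in the wild type (SD, n = 5 each), differing by -0.35 (limma adjusted p = 0.804) with groups that did not overlap. Tnfrsf25, a death domain receptor, differed by 0.16, the lymphotoxin receptor gene Ltbr by -0.13 and the T cell costimulatory receptor gene Tnfrsf4 by 0.13. Fas, the receptor of the other classical death ligand, was at 5.15 ± 0.26 in the knock-out and 5.13 ± 0.13 in the wild type (SD, n = 5 each), differing by 0.024 (limma adjusted p = 0.986). Tnfrsf11b encodes osteoprotegerin, a secreted receptor that in human also binds TRAIL, and it differed by -0.0066 with a 95% interval from -0.30 to 0.29.

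**Figure D3:**
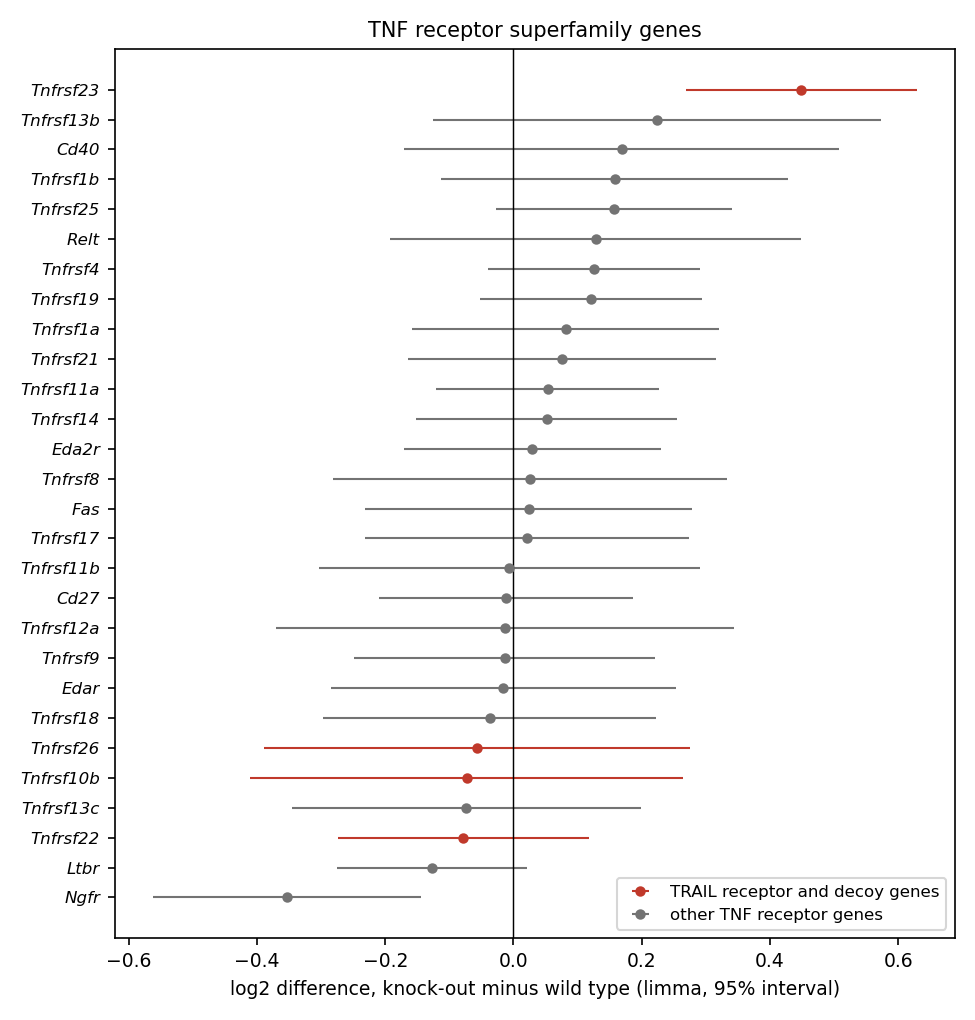
Log2 difference between knock-out and wild type (horizontal axis) with its 95% interval from limma for the 4 TRAIL receptor and decoy genes (red) and 24 other TNF receptor genes (grey), ordered from high to low. Tnfrsf23 lies at 0.45 at the top, Ngfr at -0.35 at the bottom, and the intervals of Tnfrsf26, Tnfrsf10b and Tnfrsf22 include 0.

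Among 15 measured genes of other TNF ligands, 6 had a higher and 9 a lower mean, the median difference was -0.018, and none passed. Ltb, which encodes lymphotoxin beta, was at 3.96 ± 0.074 in the knock-out and 3.72 ± 0.12 in the wild type (SD, n = 5 each), differing by 0.25 (limma adjusted p = 0.821) with groups that did not overlap. It was the 1 gene of the 15 (6.67%) with an unadjusted p under 0.05, beside 5.98% of all genes. Tnf differed by -0.19, Lta, the gene of lymphotoxin alpha, by -0.10 and Tnfsf11, the gene of the osteoclast factor RANKL, by 0.093. The number of higher means was 2 after quantile normalization. It was 3 in the shorter list left without the dimmest 40% of genes. The median was -0.048 without knock-out array 2, and its sign turned without knock-out array 4 (0.0042) and without wild-type array 4 (0.00060).

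Tnfsf10 is induced by interferons in mouse and human, so interferon-induced genes were set beside it. Higher means were found for 8 of 14 measured genes and lower means for 6, with a median difference of 0.011. None passed, and 1 (7.14%) had an unadjusted p under 0.05, beside 5.98% of all genes. The median was -0.0099 after quantile normalization and -0.0062 with arrays centred. The RNA-binding antiviral gene Ifit3 was at 6.17 ± 0.18 in the knock-out and 5.81 ± 0.18 in the wild type (SD, n = 5 each), differing by 0.36 (limma adjusted p = 0.821). The antiviral genes Mx2 and Rsad2 differed by -0.22 and 0.18 and the chemokine gene Cxcl10 by 0.19.

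The chromosomal neighbours of the cluster were examined because the 3 receptor genes lie side by side. Of the 10 nearest measured genes on each side, 12 had a higher and 8 a lower mean, with a median difference of 0.050, and none of the 20 passed. With 20 genes a side, 29 of 40 had a higher mean and the median was 0.071. Over all genes, 50.7% had a higher mean and the median was 0.0020. Of the 40, 2 (5%) had an unadjusted p under 0.05, beside 5.98% of all genes. Below the median of every array lay 13 of the 40. Without the dimmest 40% of genes the list was shorter than 40. Of those left, 17 had a higher mean and the median was 0.031. Single arrays left out moved the median of the 40 between 0.047 (knock-out array 2) and 0.11 (knock-out array 3). Cars, the cysteinyl-tRNA synthetase gene beside Tnfrsf26, was at 7.50 ± 0.16 in the knock-out and 7.69 ± 0.087 in the wild type (SD, n = 5 each), differing by -0.19 (limma adjusted p = 0.830). Osbpl5, an oxysterol-binding protein gene and the first measured gene on the far side of Tnfrsf23, was at 6.54 ± 0.15 in the knock-out and 6.59 ± 0.086 in the wild type (SD, n = 5 each), differing by -0.050. The histone chaperone gene Nap1l4 differed by -0.066, and the sensory receptor genes Mrgprg and Mrgpre by 0.16 and 0.084.

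At an unadjusted p under 0.05 stood 2 of the 20 neighbours (10%), beside 5.98% of all genes. They were Cars and 4933417O13Rik, the second named after its value was seen. 4933417O13Rik is a non-coding transcript at 2.65 ± 0.18 in the knock-out and 2.35 ± 0.21 in the wild type (SD, n = 5 each), differing by 0.30 (limma adjusted p = 0.821), and was below the lower quartile on 8 of 10 arrays. Without the dimmest 40% of genes, fewer than 20 neighbours were left. Of these, 7 had a higher mean and the median was -0.0040. Leaving out wild-type array 4 brought the median of the 20 to 0.0067.

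Imprinted genes of the same stretch of chromosome 7 numbered 12 measured, 5 with a higher and 7 with a lower mean. Their median difference was -0.042. None passed, and 0 had an unadjusted p under 0.05, beside 5.98% of all genes. The cell cycle inhibitor gene Cdkn1c was at 5.84 ± 0.30 in the knock-out and 5.87 ± 0.32 in the wild type (SD, n = 5 each), differing by -0.035. Phlda2, which restrains growth of the placenta, differed by 0.15 at levels below the lower quartile on 8 of 10 arrays. The growth factor gene Igf2 was at 10.56 ± 0.12 in the knock-out and 10.43 ± 0.15 in the wild type (SD, n = 5 each), differing by 0.13. The sign of the median turned without knock-out array 2 (0.024) and without wild-type array 1 (0.0094) or 3 (0.00445). H19 was not analysed here.

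**Figure D4:**
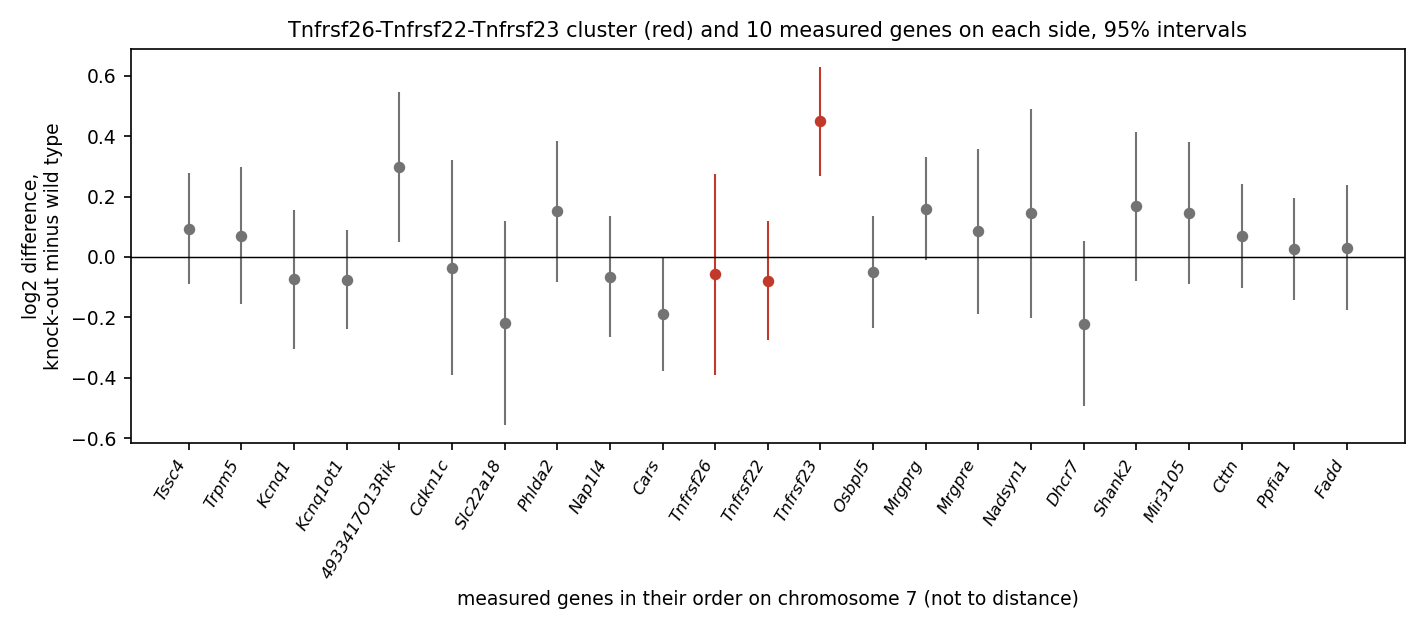
Log2 difference between knock-out and wild type (vertical axis) with its 95% interval from limma for the 3 receptor genes of the cluster (red) and 10 measured genes on each side (grey), in their order on chromosome 7 without distances. Tnfrsf23 stands at 0.45, with Tnfrsf22 at -0.078 on one side and Osbpl5 at -0.050 on the other.

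The genes most like Tnfrsf23 were found by Pearson correlation over the 10 arrays, which the difference between genotypes dominates. The 5 highest were the endopeptidase gene Ecel1 (r = 0.93), the ribonuclease gene Zc3h12d (r = 0.90), the guanylate cyclase gene Gucy2g (r = 0.89), Hyi (r = 0.88) and the apolipoprotein L gene Apol7a (r = 0.88), each on a different chromosome and none on chromosome 7. With the genotype means removed, r was 0.77 for Ecel1, 0.85 for Zc3h12d, 0.67 for Gucy2g, 0.43 for Hyi and 0.65 for Apol7a. Hyi, a hydroxypyruvate isomerase homologue and the brightest of the 5, was at 7.65 ± 0.056 in the knock-out and 7.41 ± 0.094 in the wild type (SD, n = 5 each), differing by 0.25 with groups that did not overlap. The other 4 had wild-type means from 2.47 to 4.27, and their groups overlapped. Apol7a was below the lower quartile on 6 of the 10 arrays. All 5 were selected as the highest from 22180 genes, passing over gene models, small RNAs and olfactory and vomeronasal receptors. These correlations are therefore a description without a test.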

How the data were processed

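The deposited values are log2 expression values, 1 column per array and 1 row per probe set (41345). The sources used here do not give how the authors summarised, background-corrected and normalised the arrays, and the labels name biotin labelling and the Affymetrix protocol. Scaling arrays to one level can mask a difference in RNA content. Gene symbols came from the platform annotation, in which 23521 probe sets had 1 gene symbol, 1814 several and 16010 none. For each gene with a single symbol the probe set with the highest mean was used (22180 genes). Differences, standard errors and 95% intervals come from limma 3.58.1 (R 4.3.3) over all genes without covariates, with Benjamini-Hochberg adjustment and a threshold of 0.05. The code was tested on simulated data. Promoters and gene order came from RefSeq tables (GRCm38.p6). The members and lists were chosen with earlier results of these data known. The named genes are the members, Zbtb4, the 4 smallest p-values of each pathway list, set genes of the pathway and the imprinted stretch, 3 neighbours a side and the 5 genes most like Tnfrsf23 (passing over gene models, small RNAs and olfactory and vomeronasal receptors). Outside this rule, 4933417O13Rik, Thg1l and some cell type markers are also named. Of these markers, Cdh5, Esam, Kdr, Cldn5 and Emcn are given for their values, as is Thg1l. The number of arrays limits precision: the median standard error of a difference was 0.101. Protein sequences were not used here. Alternatives were other scalings, probe set choices, filters, variance models, a replicate block, a Y-linked covariate and leaving out each array.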

Additional observations from a re-analysis of the deposited data

Results flagged for a closer look

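Among 90 groups of 5 arrays (45 genes and marker lists in 2 genotypes), 4 held an array far from the other 4, where chance flags about 4.5. Tnfrsf26 on knock-out array 3 read 4.47, the other knock-out values lying between 3.47 and 3.75. Tnfrsf22 read 6.16 on wild-type array 1, against 6.46 to 6.57 on the other wild-type arrays. Osbpl5 read 6.74 on wild-type array 5, against 6.54 to 6.57 on the other wild-type arrays, and Mcl1 read 8.18 on wild-type array 2, against 8.32 to 8.36.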

How the results depend on the processing

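The Tnfrsf23 difference ran from 0.43 to 0.47 under other processing. With single arrays left out it ran from 0.41 (without knock-out array 2) to 0.49 (without knock-out array 3). Its sign was the same in all 19 alternatives, but most of them could not turn it. The groups do not overlap, so leaving out an array cannot. The filter on dim genes, the other variance model and the replicate block leave the difference unchanged by construction. With single arrays left out, Tnfrsf22 ran from -0.14 to -0.040, Tnfrsf26 from -0.22 to 0.025, Tnfrsf10b from -0.20 to 0.0073 and Tnfsf10 from -0.031 to 0.067. Other processing moved no member by more than the pooled SD between arrays. Leaving out a single array cannot move a difference that far, so those fits do not bear on this. Under quantile normalization Tnfrsf22 differed by -0.047 and Tnfsf10 by 0.00082. The number of genes past the adjusted threshold was 0 in all alternatives but 1: it was between 0 and 1 with an array left out, the 1 being Thg1l without wild-type array 5. Each member has 1 probe set, so other choices of probe set changed no difference, and the filter on dim genes left Tnfsf10 out. In the last 150 bases before the start, both promoters held 5 CpG, where the median was 4. Same-numbered arrays correlated from -0.045 to 0.17 in their deviations and 3 of 10 arrays correlated best with their own number. Y-linked genes read high on arrays 1 and 3 of both genotypes and low on the others, so same-numbered arrays match in sex. Whether the numbers pair samples is not known, and the main fit took no pairing. With the replicate block, Tnfrsf23 differed by 0.45 (standard error 0.084) and 0 genes were called. Signal over background is unknown, which limits Tnfsf10 and Tnfrsf26 most.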
